A study of Rattus norvegicus with 4 samples.

Results

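The immediate early transcription factors examined here were 10 genes chosen by name from the 16992 annotated genes of the rat liver tables: *Fos*, *Fosb*, and *Fosl2* of the FOS family, *Jun*, *Junb*, and *Jund* of the JUN family, *Egr1*, *Ier2*, *Ier3*, and *Myc*. Liver RNA came from 4 wild type male Wistar rats, with 1 rat for each condition. The rats were 6 weeks old at purchase, were acclimatized for at least 1 week, fasted without water for 2 h, and breathed either sevoflurane at 4.5% or desflurane at 6%, carried in 50% oxygen at 3 L/min. One rat of each agent was anesthetized for 6 h, and the control of each agent was sacrificed at loss of consciousness, after less than 1 minute, so that the controls had also inhaled the agent. All 4 rats were sacrificed at about 3 PM, and the left lateral lobe was taken. With 1 library per condition, a difference between conditions and a difference between individual rats cannot be told apart, no test was made, and no value has a replicate error.

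Immediate early genes are transcribed within minutes of a stimulus, without new protein synthesis, because the factors that drive them are already in the cell and are switched on by kinases. JUN proteins pair with each other or with FOS proteins to form the AP-1 complex, whereas EGR1 is a zinc finger protein that binds GC-rich sites and MYC pairs with MAX at E-boxes. In the liver, these genes are known for their response to partial hepatectomy, to feeding and fasting hormones, and to tissue handling, and their transcripts are short-lived. IER3 is known as a stress-induced regulator of cell survival and not as a DNA-binding factor.

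Promoter sequences of 6 of the 10 members (*Fosb*, *Fosl2*, *Junb*, *Jund*, *Egr1*, and *Ier2*) were found in the RefSeq table of the GRCr8 build, which covers 250 bases before to 50 bases after each gene start. *Fos*, *Jun*, *Ier3*, and *Myc* had no entry. The sequences of 4 members are printed 5′ to 3′ on the strand of the gene, because *Egr1* and *Junb* were the members with both 6 h libraries above both controls and *Jund* and *Ier2* were higher in both desflurane livers than in both sevoflurane livers. Capitals mark every match to one of 6 motifs searched on both strands, which were the CArG box bound by SRF, the cAMP response element TGACGTCA, the AP-1 site TGANTCA, the EGR site GCGNGGGCG, the E-box CACGTG, and the TATA box TATAAA. The sequences are *Egr1* at chr18:26736828-26737127 (plus strand), *Junb* at chr19:40080876-40081175 (plus strand), *Jund* at chr16:18769722-18770021 (minus strand), and *Ier2* at chr19:40399123-40399422 (plus strand).
Egr1: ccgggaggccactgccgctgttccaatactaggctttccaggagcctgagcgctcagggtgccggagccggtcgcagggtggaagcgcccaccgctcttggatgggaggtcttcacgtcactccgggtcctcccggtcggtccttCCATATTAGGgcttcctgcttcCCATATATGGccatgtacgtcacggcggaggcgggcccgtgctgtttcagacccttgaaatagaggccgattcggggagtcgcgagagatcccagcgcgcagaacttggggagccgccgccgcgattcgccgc
Junb: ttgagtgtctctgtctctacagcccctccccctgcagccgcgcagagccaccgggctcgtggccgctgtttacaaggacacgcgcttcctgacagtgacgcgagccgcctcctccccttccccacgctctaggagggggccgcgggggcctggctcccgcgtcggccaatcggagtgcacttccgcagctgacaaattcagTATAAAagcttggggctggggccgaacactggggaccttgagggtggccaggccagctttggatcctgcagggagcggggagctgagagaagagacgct
Jund: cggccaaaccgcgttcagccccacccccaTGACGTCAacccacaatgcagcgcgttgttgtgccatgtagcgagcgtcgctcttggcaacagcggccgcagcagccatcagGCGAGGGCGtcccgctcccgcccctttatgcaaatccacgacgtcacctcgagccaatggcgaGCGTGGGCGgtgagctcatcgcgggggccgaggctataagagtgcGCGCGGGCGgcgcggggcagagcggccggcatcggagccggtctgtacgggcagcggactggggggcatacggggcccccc
Ier2: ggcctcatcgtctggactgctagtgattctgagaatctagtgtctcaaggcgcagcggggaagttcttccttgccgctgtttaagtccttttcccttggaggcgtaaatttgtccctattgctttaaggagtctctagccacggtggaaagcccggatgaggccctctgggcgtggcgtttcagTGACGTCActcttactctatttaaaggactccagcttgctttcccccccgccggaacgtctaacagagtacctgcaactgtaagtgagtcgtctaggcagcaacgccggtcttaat

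The *Egr1* window held 2 CArG boxes, CCATATTAGG starting 105 bases and CCATATATGG starting 83 bases before the gene start. A CArG box was present in 1.64% of all 33469 promoters of the table and in 1 of the 6 member promoters. *Jund* and *Ier2* each held the full cAMP response element, starting 221 and 66 bases before the gene start, and this element was present in 1.83% of all promoters. *Jund* also held 3 EGR sites, and *Fosl2*, which is not printed, held 2. At least 1 EGR site was present in 4.98% of all promoters. The letters of this site are almost all G and C, and that share is not matched for GC content. The TATA box of *Junb* started 49 bases before the gene start, and 14.2% of all promoters held a TATA box on either strand. None of the 6 windows held the AP-1 site or the E-box as spelled here, which were present in 7.33% and 6.42% of all promoters, and this says only that these letters are not in these windows. GC content was 64.7% in *Egr1*, 65.3% in *Junb*, 69.7% in *Jund*, 52.7% in *Ier2*, and 70.7% in *Fosl2*, against a median of 51.7% over all promoters.

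Expression is given as TPM, a transcript level normalized for length, which in these tables adds up to 1000000 over the assembled transcripts of a library. Upregulated and downregulated refer to the calling rule of the study, a TPM higher than 2 in the higher state and a difference of more than 2-fold, without a pseudocount. Depth was between 4.47 and 5.40 Gb of aligned sequence, and between 9474 and 9695 genes had a TPM higher than 2 in a library. Hepatocyte markers (8 of 8 detected, among them *Alb*) summed to between 144523 and 160527 TPM in the 4 libraries. The sevoflurane control stood apart in its 6 pancreatic acinar markers, which summed to 28.9 TPM against 0.167 to 0.738 TPM in the other livers, where 3 or 4 of the 6 were at 0. The member comparisons that rest on this control are therefore given with the desflurane control as well. Between 6 h of desflurane and its control, the median log2 change of the 9136 genes above 2 TPM in all 4 libraries was 0.12, and it was 0.05 for sevoflurane. Relative to this shift, the changes of *Egr1*, *Junb*, and *Myc* between the desflurane livers were 2.87, 0.81, and −1.10 on the log2 scale.

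Of the members, 8 had a TPM higher than 2 in all 4 libraries, and *Fos* and *Fosb* were below 2 in all 4. Compared with the respective control, none of the members was upregulated or downregulated after 6 h of sevoflurane, whereas 1.28% of all genes were upregulated and 1.9% were downregulated. After 6 h of desflurane, *Egr1* alone was upregulated and no member was downregulated, compared with 1.62% and 0.859% of all genes. The summed TPM of the 10 members was 208 in the sevoflurane control and 193 after 6 h of sevoflurane, and 240 and 324 in the corresponding desflurane livers. The difference between the desflurane livers was largely that of *Egr1*. Because the liver is a mixture of cells, fewer cells of a type and less RNA per cell cannot be told apart in these libraries.

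**Figure D1:**
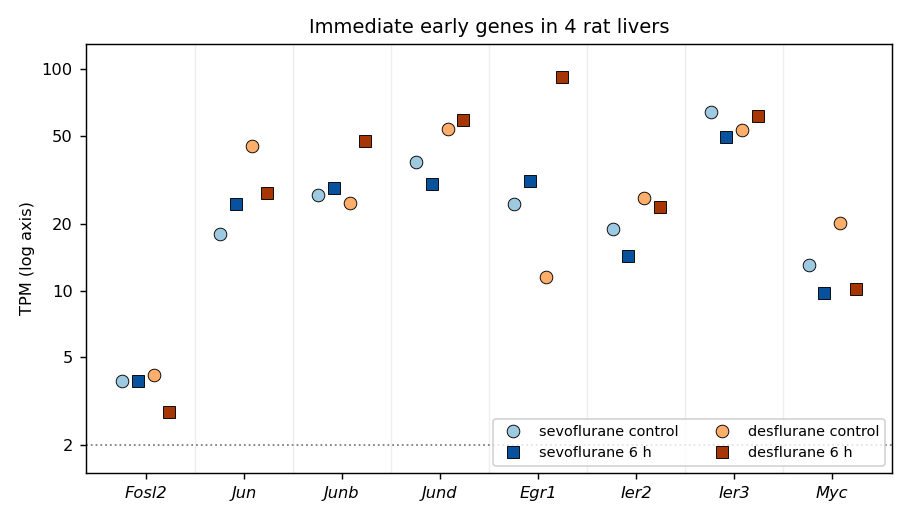
TPM of 8 immediate early genes (log axis) in the 4 livers, 1 point per library, with circles for controls, squares for 6 h, blue for sevoflurane, orange for desflurane, and a dotted line at 2 TPM; *Fos* and *Fosb*, below 2 TPM throughout, are left out. *Egr1* spans 11.6 to 92.0 TPM, and *Ier3* spans 49.5 to 64.2 TPM.

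*Egr1* (chr18:27657903-27660101, rn6 as for the genes below, plus strand) encodes a zinc finger activator induced by growth factors and stress. Its TPM was 24.5 in the sevoflurane control and 31.4 after 6 h of sevoflurane, and 11.6 and 92.0 in the corresponding desflurane livers. The desflurane 6 h liver was the highest and the desflurane control the lowest, and both 6 h livers were above both controls. Among genes, *Egr1* ranked 5327 in the desflurane control and 1024 after 6 h of desflurane. The fold change was 7.96 against the desflurane control (log2 2.99) and 3.75 against the sevoflurane control (log2 1.91), so that the call held with either control. In the comparison with the desflurane control, 0.109% of the 9136 genes above 2 TPM in all libraries lay at least as far from a log2 change of 0 as *Egr1*, in either direction. After 6 h of sevoflurane, the fold change was 1.28 against the sevoflurane control (log2 0.36) and 2.72 against the desflurane control (log2 1.44). The call for sevoflurane thus depended on the control, and the controls themselves differed 2.12-fold in *Egr1*. Mean coverage of its exons was 21.6 to 155 reads per base, and no other annotated gene overlapped it.

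*Egr1* was one of the members with both 6 h livers above both controls, the other being *Junb*. This pattern held for 2 of the 8 members above the limit and for 33.3% of the 9993 genes above 2 TPM in at least 1 library, or 22.4% after median-of-ratios scaling. The reverse pattern, both 6 h livers below both controls, held for *Fosl2* and *Myc*, and for 13.3% of genes, or 22.7% after that scaling. Both desflurane livers were above both sevoflurane livers for *Jun*, *Jund*, and *Ier2*, compared with 14.9% of genes, and no member had the opposite order in TPM, compared with 11% of genes. With FPKM, *Jun* was 9.33 after 6 h of sevoflurane and 9.05 after 6 h of desflurane, and *Fosl2* was 1.47 after 6 h of sevoflurane and 1.43 in the desflurane control, so that these genes no longer had their pattern. *Fosl2* then had both desflurane livers below both sevoflurane livers, at 1.43 and 0.926 against 1.53 and 1.47.

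The JUN family was the more abundant side of AP-1. *Jun* (chr5:114011186-114014277, minus strand), which encodes the founding AP-1 subunit, had a TPM of 18.1 in the sevoflurane control and 24.7 after 6 h of sevoflurane, and 45.2 and 27.5 in the corresponding desflurane livers. The desflurane control was the highest of the 4, and both 6 h livers lay between the controls. Against its own control, *Jun* was 1.36-fold higher after sevoflurane and 1.64-fold lower after desflurane, and neither passed the rule. The difference between the controls did pass it, at 2.50-fold (log2 1.32), where 0.671% of all genes were higher and 0.671% lower in the desflurane control. *Egr1* was the other member that differed between the controls, in the opposite direction.

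*Junb* (chr19:26092972-26094756, minus strand), a JUN protein known as a weaker activator that can restrain JUN, had a TPM of 27.0 in the sevoflurane control and 29.1 after 6 h of sevoflurane, and 24.8 and 47.4 in the corresponding desflurane livers. The desflurane 6 h liver stood above the other livers, which lay close together. It was 1.91-fold above its own control and 1.75-fold above the sevoflurane control, under the 2-fold limit in both. Between the desflurane livers, 3.83% of genes lay at least as far from a log2 change of 0. *Jund* (chr16:20485028-20486707, minus strand), the JUN protein that resting cells express, had a TPM of 38.2, 30.2, 53.9, and 58.8 in the same order. Its largest difference was between the 6 h livers, at 1.95-fold, and this too was under the limit.

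The summed TPM of the JUN family was 83.3 in the sevoflurane control and 84.0 after 6 h of sevoflurane, and 124 and 134 in the corresponding desflurane livers. *Jun* made up 36.5% of it in the desflurane control and 20.6% after 6 h of desflurane, whereas *Junb* made up 20.03% and 35.5%. With sevoflurane, the share of *Jun* was 21.7% in the control and 29.4% after 6 h, and that of *Junb* was 32.5% and 34.7%. *Jund* held between 36.0% and 45.8% in the 4 livers.

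**Figure D2:**
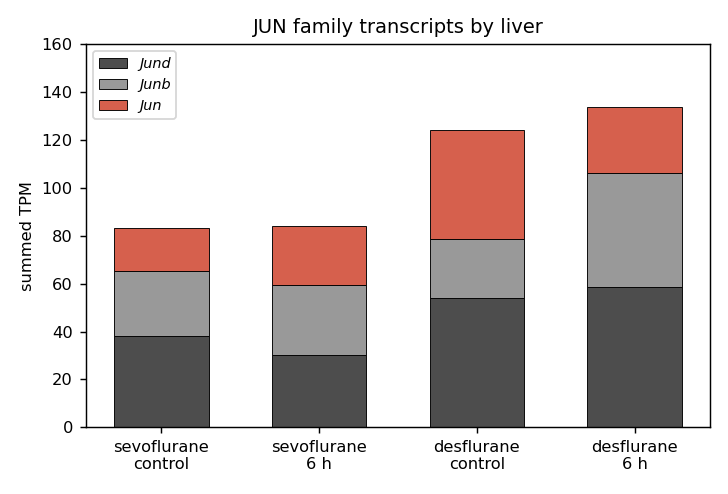
Summed TPM of *Jund* (dark grey), *Junb* (light grey), and *Jun* (red) in each of the 4 livers, 1 library per bar. The sum is 83.3 and 84.0 TPM in the sevoflurane livers and 124 and 134 TPM in the desflurane livers, with a smaller *Jun* segment and a larger *Junb* segment after 6 h of desflurane than in its control.

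FOS family transcripts were scarce in all 4 livers. *Fos* (chr6:109300433-109303299, plus strand), the classical marker of recent cell stimulation, had a TPM of 0.081 in the sevoflurane control and 0.523 after 6 h of sevoflurane, and 0.653 and 0.151 in the corresponding desflurane livers. At an exon length of 1589 bp, these values corresponded to 2.30, 13.9, 19.2, and 4 reads of full length. *Fosb* (chr1:80214691-80221417, minus strand) had a TPM of 0.0229, was listed at 0, and had a TPM of 0.0578 and 0.186 in the same order, or 134, 0, 352, and 1020 aligned bases if its exon length is taken as 3251 bp, the shorter of 2 lengths that matched the values. No fold change is given for either gene at this depth, and neither passed the TPM limit. *Fosl2* (chr6:25598936-25616995, minus strand), which encodes the FOS family member FRA-2, had a TPM of 3.89, 3.88, 4.13, and 2.82. The desflurane 6 h liver was the lowest, with a log2 change of −0.55 against its control and −0.47 against the sevoflurane control. The ratio of the summed JUN family to the sum of *Fos*, *Fosb*, and *Fosl2* was 20.8, 19.1, 25.6, and 42.4 in the same order. *Fosl1*, also of the FOS family, is not in that sum and had a TPM of 0.0883, 0.139, 0.467, and 0.252.

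*Ier2* (chr19:25774146-25775670, minus strand), which encodes a nuclear protein of the early growth response, had a TPM of 19.1 in the sevoflurane control and 14.3 after 6 h of sevoflurane, and 26.3 and 23.8 in the corresponding desflurane livers. Against the own control, the log2 change was −0.42 for sevoflurane and −0.14 for desflurane, within the 2-fold limit. *Ier3* (chr20:3438798-3440002, minus strand) had a TPM of 64.2, 49.5, 53.0, and 61.6 and varied least, with a highest-to-lowest ratio of 1.30. That ratio was 1.84 for *Ier2* and 7.96 for *Egr1*, and the median range of all genes above 2 TPM in all libraries was 0.42 on the log2 scale. The ranges of the controls and the 6 h livers overlapped for both genes.

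*Myc* (chr7:102586313-102591239, plus strand), which encodes a driver of growth and ribosome production, had a TPM of 13.1 in the sevoflurane control and 9.78 after 6 h of sevoflurane, and 20.1 and 10.2 in the corresponding desflurane livers. Both 6 h livers were below both controls and nearly equal to each other. The desflurane control was 1.97-fold above the desflurane 6 h liver, just inside the 2-fold limit. Between these livers, 3.29% of genes lay at least as far from a log2 change of 0. The log2 change of *Myc* was −0.98 as deposited and −1.11 after median-of-ratios scaling. *Myc* thus counted as downregulated by desflurane under that scaling, as it did with FPKM and without rRNA genes. Against the desflurane control, *Myc* was also downregulated after 6 h of sevoflurane, at 2.06-fold (log2 −1.04), a call that was lost with a pseudocount of 1 TPM and with FPKM, whereas against the sevoflurane control the difference was 1.34-fold for sevoflurane and 1.29-fold for desflurane. Of all genes, 1.45% were upregulated and 1.49% downregulated between the sevoflurane 6 h liver and the desflurane control, and 1.65% and 0.918% between the desflurane 6 h liver and the sevoflurane control.

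**Figure D3:**
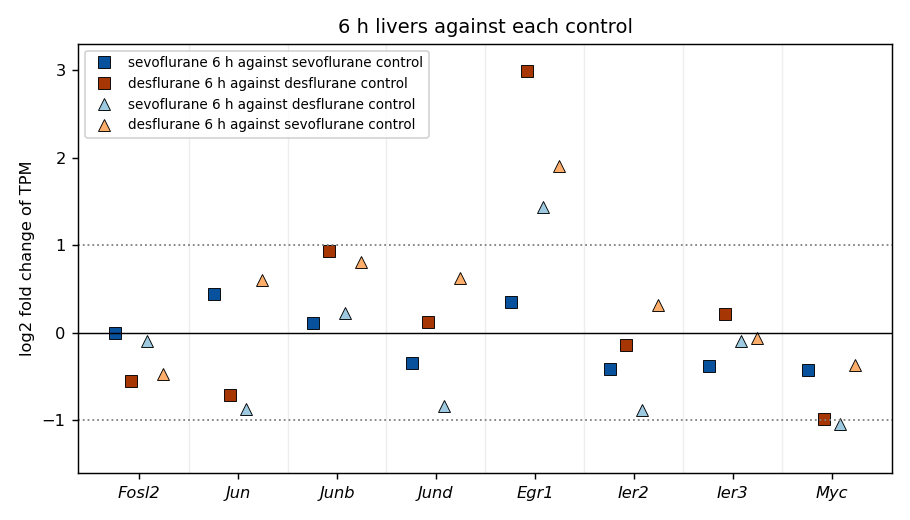
log2 fold change of TPM for 8 immediate early genes after 6 h of sevoflurane (blue) or desflurane (orange), against the own control (dark squares) or the other control (light triangles), with dotted lines at 2-fold. All 4 values of *Egr1* are above 0, and those of *Jun* lie on both sides of 0 for each agent.

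Over the 8 members above the limit, 3 were higher and 5 lower after sevoflurane than in its control. Their median log2 change was −0.17, beside 56.5% higher and a median of 0.05 over the 9754 genes above the limit. After desflurane, 4 members were higher and 4 lower, with a median of −0.01. Over 9855 genes above the limit, 66.6% were higher and the median was 0.12. With the controls exchanged, 2 members were higher and 6 lower for sevoflurane, with a median of −0.47. For desflurane, 5 members were then higher and 3 lower, with a median of 0.46. Between the 6 h livers, 7 of 8 members were higher with desflurane, with *Fosl2* lower, and the median was 0.51. It was 0.06 for the 9136 genes above 2 TPM in all 4 libraries. With FPKM, the log2 differences of *Jun* and *Myc* were −0.04 and −0.14, below 0. *Egr1* was the only member past the rule there, at 2.93-fold, where 1.59% of all genes were higher and 0.677% lower. *Jun*, *Jund*, and *Ier3* lay on opposite sides of 0 with the 2 agents, with no value past the limit and with a desflurane value of −0.00 for *Jund* after median-of-ratios scaling.

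**Figure D4:**
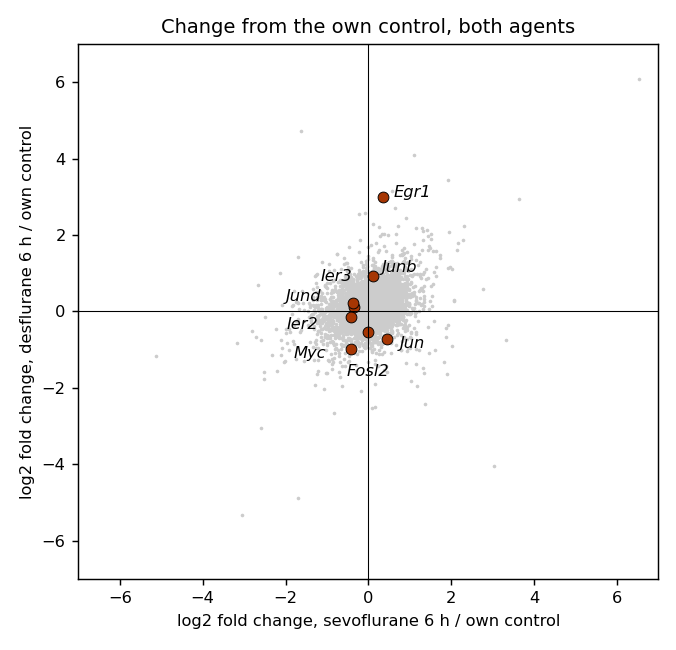
log2 fold change of TPM after 6 h of desflurane (vertical axis) against that after 6 h of sevoflurane (horizontal axis), each relative to the own control, for 9136 genes above 2 TPM in all 4 libraries (grey) and 8 members (orange). *Egr1* lies at 0.36 and 2.99, and the other members lie between −0.98 and 0.93 on the vertical axis.

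Macrophages and Kupffer cells also express immediate early genes. Their 10 markers were all detected, with none at 0, and summed to 719 TPM in the sevoflurane control and 452 TPM after 6 h of sevoflurane, and 561 TPM and 684 TPM in the corresponding desflurane livers. All 10 were lower after sevoflurane, where *Marco*, *Adgre1*, and *Csf1r* were downregulated, and 9 were higher after desflurane, where none was called. Against the sevoflurane control, 3 of the 10 were higher and 7 lower after desflurane, and against the desflurane control all 10 were lower after sevoflurane. The 7 neutrophil markers summed to between 1.74 and 4.83 TPM, with none above 2 TPM and with 1 or 2 of them at 0. The part of these cells in the member values was not tested.

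Other genes of the early response pathway were taken from lists of 143 genes, of which 137 were in the tables. After sevoflurane, 3 were upregulated and 5 were downregulated, and after desflurane the numbers were 5 and 5. With each agent, 112 listed genes were above the limit. Of all 16992 genes, 1.28% and 1.9% were called with sevoflurane and 1.62% and 0.859% with desflurane. These shares include genes below the limit, which the rule cannot call. Among genes above the limit, 218 and 322 of 9754 were called with sevoflurane, and 275 and 146 of 9855 with desflurane. With the controls exchanged, the listed genes had 8 and 7 calls with sevoflurane and 4 and 4 with desflurane. Among 17 other early transcription factors of the NR4A, KLF, ID, and C/EBP type, *Klf9* was upregulated and *Id2* downregulated by desflurane, and none was called with sevoflurane. The call of *Id2* held against the sevoflurane control, whereas that of *Klf9* did not (log2 0.91). Against the desflurane control, *Id1* was upregulated and *Nfil3* downregulated after sevoflurane. Against the sevoflurane control, *Klf10* was upregulated after desflurane (log2 1.38). These genes are named to complete the calls of this list. *Klf9*, a glucocorticoid-responsive factor, had a TPM of 69.4, 92.6, 63.2, and 131 in the order sevoflurane control, sevoflurane 6 h, desflurane control, and desflurane 6 h. *Id2*, an inhibitor of helix-loop-helix factors, had a TPM of 133, 96.6, 125, and 50.7. *Cebpb*, the most abundant factor of the list by the mean over the 4 livers, had a TPM of 111, 164, 124, and 127.

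Early response genes that do not encode transcription factors, the longest of the lists, gave most of the listed-gene calls against the own control. The lists were chosen with earlier results of these data known, so the number of calls cannot be read as a trait of such genes. Of 35 such genes, 28 were above the limit with each agent, and 3 were upregulated and 5 downregulated by sevoflurane, against 4 and 3 by desflurane, with the shares of all genes called as given above. *Socs3*, a feedback inhibitor of cytokine signalling, was downregulated by both agents, with a TPM of 15.2, 3.74, 24.2, and 9.76 in the same order. The sevoflurane call held with either control, and the desflurane call was lost against the sevoflurane control (log2 −0.64). *Dusp1*, a phosphatase that inactivates MAP kinases, had a TPM of 52.7, 58.4, 127, and 22.4 and was downregulated by desflurane (log2 −2.50, against 0.15 for sevoflurane), with the desflurane control as the highest liver. *Per1*, a clock gene that also responds to cAMP and glucocorticoids, had a TPM of 8.92, 16.8, 4.46, and 24.4. It was upregulated by desflurane (log2 2.45, against 0.92 for sevoflurane), with the desflurane control as the lowest liver. With the controls exchanged, *Per1* was upregulated after desflurane (log2 1.45) and also after sevoflurane (log2 1.91). *Plk3*, a stress-responsive kinase, had a TPM of 2.24, 6.04, 2.17, and 8.50 and was upregulated in both 6 h livers against either control. So was *Zfp36*, which encodes an mRNA decay factor and was chosen after its values were seen, with a TPM of 43.6, 97.4, 41.0, and 105. *Pim1* was downregulated by sevoflurane (log2 −1.35, against 0.36 for desflurane), with a TPM of 8.36, 3.29, 5.76, and 7.42. The other calls of this list were *Ifrd1*, upregulated by both agents, *Dusp6*, *Sgk1*, and *Phlda1*, downregulated by sevoflurane, and *Plk2*, downregulated by desflurane. With the other control, the calls of *Sgk1* (log2 0.02) and *Pim1* (−0.81) with sevoflurane and of *Ifrd1* (0.81) and *Plk2* (−0.40) with desflurane were lost. Calls were also gained after sevoflurane against the desflurane control. There, *Ccn2* (log2 1.30) and *Per1* were upregulated, and *Dusp1* (−1.12) and *Plk2* (−1.23) were downregulated. *Errfi1*, a feedback inhibitor of the EGF receptor, was the most abundant at 559, 612, 574, and 736 TPM.

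Genes upstream of the members showed no calls. None of the 20 kinases, SRF partners, and CREB factors in the tables was called with either agent, and the median of their log2 changes was −0.02 for sevoflurane and 0.12 for desflurane. *Egfr*, the most abundant, had a TPM of 131, 97.7, 113, and 157. Of the other EGR family genes and NAB corepressors, *Egr2*, *Egr3*, and *Egr4* were below 1 TPM in all livers, and *Nab1*, the most abundant, lay between 22.8 and 27.0 TPM. No other AP-1 or MAF gene passed the rule against its own control. Between the controls, *Atf3* was higher (3.20-fold) and *Batf3* lower (2.01-fold) in the desflurane control, past the rule. *Atf3* was also downregulated after sevoflurane against the desflurane control (log2 −1.26). Both lay near the limit, with a TPM of 0.789, 1.05, 2.53, and 1.71 for *Atf3* and 2.14, 1.08, 1.07, and 2.02 for *Batf3*.

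Genes commonly assigned to AP-1, EGR1, or MYC as targets gave 1 call against the own control. Among 17 AP-1 and EGR1 targets, 11 were above the limit and none was called against the own control. Against the sevoflurane control, *Ccnd1*, named to complete the calls of this list, was downregulated after desflurane (log2 −1.58). Of 22 MYC targets, chiefly genes of ribosome production, none was called with sevoflurane against its own control. *Ccnd2*, a cyclin, was downregulated by desflurane against either control, with a TPM of 13.0, 8.09, 12.1, and 4.80. Against the desflurane control, *Nop56* (log2 1.42) and *Rrs1* (1.21) were upregulated after sevoflurane, named for the same reason. With sevoflurane, 20 of the 22 were higher than in the control, with a median log2 change of 0.40, and with desflurane 18 were, with a median of 0.22. Of all genes above the limit in each comparison, 56.5% were higher with sevoflurane (median 0.05) and 66.6% with desflurane (median 0.12). *Myc* itself was lower in both 6 h livers. *Ldha* was the most abundant target at 500.1, 692, 610, and 561 TPM. None of the MAX network genes was called, and *Mlx*, the most abundant by the mean over the 4 livers, had a TPM of 41.2, 60.6, 43.3, and 54.0.

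**Figure D5:**
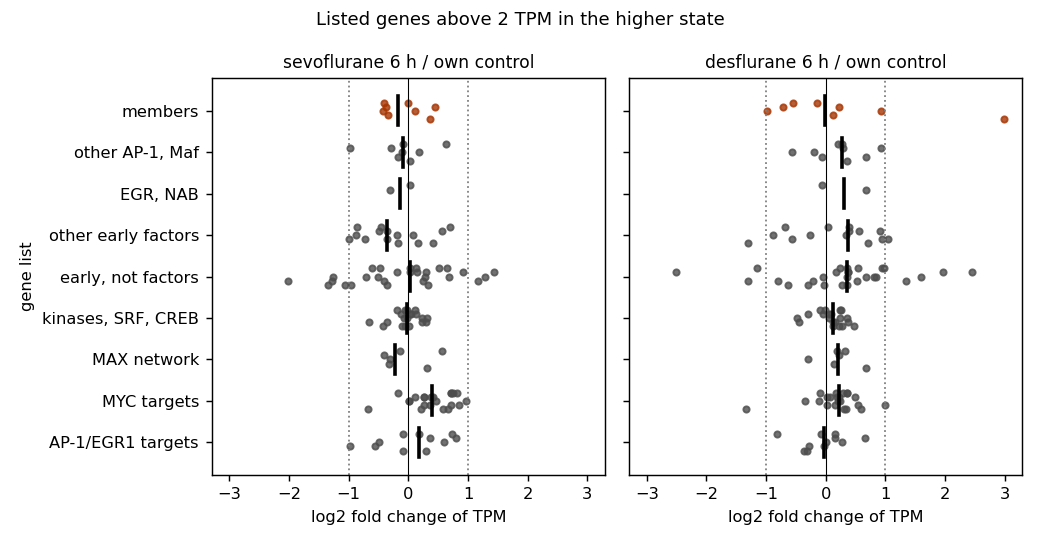
log2 fold change of TPM against the own control for the members (orange) and the listed genes (grey), 1 row per list, after 6 h of sevoflurane (left) and desflurane (right), for genes above 2 TPM in the higher state, with the list median as a black bar and dotted lines at 2-fold. The row of early genes that are not factors is the widest, from −2.02 to 1.43 with sevoflurane and from −2.50 to 2.45 with desflurane.

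The genes whose levels over the 4 livers were nearest to *Fos*, by distance between mean-centred log2(TPM + 1) values among 9985 genes, were *Nos1ap* (0.0402), *Pacc1* (0.0542), *S100a1* (0.0721), *Aurkb* (0.0760), and *LOC257642* (0.0787). At 2.30 to 19.2 reads of *Fos* per library, the reads behind this order are few, and its error is unknown. The genes nearest to *Egr1*, a search added after its values were seen, were *Eif4ebp3* (0.300), *Tex36* (0.411), *G6pc* (0.465), *Adcy10* (0.496), and *Slc25a47* (0.550). *G6pc*, the glucose-releasing enzyme of gluconeogenesis, had a TPM of 206, 223, 114, and 554 in the order used above, with the same highest and lowest livers as *Egr1*. The search chose *G6pc* by these same 4 values, so this likeness follows from the choice. A link between these genes and *Egr1* was not tested.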

How the data were processed

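Total RNA of the left lateral lobe was depleted of rRNA and sequenced as paired-end reads in 4 libraries. The kit is named differently in the labels (TruSeq Stranded Total RNA Gold) and the methods (Ribo-Zero Plus). The authors used sickle for trimming, HISAT2 2.1.0 for mapping to rn6, SAMtools 1.10 for sorting, and StringTie 2.1.2 with the refGene annotation for quantification. The deposited tables hold coverage (average depth over exons, a signal not normalized for library size). The FPKM values were normalized for library size by the authors. The deposited TPM values are a signal on a scale where the assembled rows of StringTie sum to 1000000.

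Annotated rows longer than 200 bp were kept and TPM was summed per symbol. Each 6 h library was compared with its own and the other control, the controls with each other, and the 6 h libraries with each other (6 comparisons). Depth was derived from the ratio of FPKM to coverage. Reads of *Fos* and *Fosb* were recovered from coverage multiplied by exon length. No counts were used, and the precision of single values is unknown apart from coverage. Members and gene lists were chosen with earlier results of these data known. Named genes are all members, up to 3 called genes with the largest changes per list and comparison, the most abundant gene of each list (mean TPM over the 4 libraries), and the 5 genes nearest to *Fos*; others are marked or are named to complete a count. Some genes that meet these criteria are not reported here. Promoters came from RefSeq (GRCr8), whereas gene coordinates are those of the files (rn6). The script for the calls was tested on simulated data. Alternatives covered the TPM and fold limits, a pseudocount, scaling, FPKM, rRNA removal, length, coverage, and the choice of control. Python 3.11.15, numpy 2.4.6, pandas 2.3.3, and matplotlib 3.10.9 were used.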

Additional observations from a re-analysis of the deposited data

Results flagged for a closer look

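Against their own controls, the log2 changes of 3 members had opposite signs with the 2 agents, each on 1 library per condition. The log2 change with desflurane minus that with sevoflurane was −1.16 for *Jun* (0.45 with sevoflurane and −0.72 with desflurane), 0.46 for *Jund* (−0.34 and 0.12), and 0.59 for *Ier3* (−0.38 and 0.22). The desflurane value of *Jund* was −0.00 after median-of-ratios scaling. These differences were not tested. For *Jun*, the controls differed 2.50-fold, and against the mean of the controls both 6 h livers were lower.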

How the results depend on the processing

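No paired analysis was possible because each condition has 1 library and the labels give no replicate numbers, and for the same reason no replicate could be left out. Of 136 alternative counts of members called, 111 stayed within 1.5 times the count in the report. The share of all genes called was not computed at the alternative settings. These counts therefore show only how the calls move, and they are not a result about the members. Without a TPM limit, the sevoflurane comparison with its own control had 1 member up (*Fos*) and 1 down (*Fosb*), and the desflurane comparison had 2 up and 1 down. Against the other control, this setting gave 2 down for sevoflurane and 2 up for desflurane, and it gave 3 up between the controls and 2 up and 1 down between the 6 h livers. At 1.5-fold, desflurane against its control had 2 up (*Junb*, *Egr1*) and 2 down (*Jun*, *Myc*), sevoflurane against the desflurane control had 4 down, desflurane against the sevoflurane control had 4 up, the controls had 2 up, and the 6 h livers had 4 up. At 3-fold, 0 members were up or down between sevoflurane and the desflurane control, between the controls, and between the 6 h livers, whereas *Egr1* stayed up with desflurane against either control. *Myc* was the 1 member down with desflurane under median-of-ratios scaling, FPKM, and removal of 4 rRNA genes, and the count for sevoflurane against the desflurane control was 0 down with a pseudocount of 1 and with FPKM.

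For the wider lists, 58 of 84 alternative counts stayed within 1.5 times, again without the share of all genes at those settings. Sevoflurane against its control had 5 up and 12 down with no TPM limit, 20 and 16 at 1.5-fold, 0 and 1 at 3-fold, 6 up against the mean of the controls, and 9 down under median-of-ratios scaling. Desflurane against its control had 11 and 11, 20 and 10, and 3 and 1 at the first 3 settings. Sevoflurane against the desflurane control had 14 down with no limit, 19 up and 14 down at 1.5-fold, 2 and 2 at 3-fold, and 4 down with FPKM. Desflurane against the sevoflurane control had 10 and 13, 15 and 9, and 1 and 0. Of 304 alternative log2 changes of members, 9 changed sign, none of them called, among them *Jun* with sevoflurane (−0.36 against the mean of the controls) and *Jund* with desflurane (−0.00 after median-of-ratios scaling). The log2 change of *Egr1* with desflurane was 2.35 against the mean of the controls. The cause of these shifts was not tested. Use of the assembled rows in place of the annotated rows was chosen after seeing the data.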
